A study of Homo sapiens with 4 samples.

Results

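The peaks described here were 1434 chromatin regions that lay far from any protein-coding gene. They were pulled down with probes against the long noncoding RNA MIR205HG/LEADR in both replicates 2 and 3 of 3 ChIRP-seq experiments, those with the most peaks. They were chosen by their peak calls and by their position: a replicate 3 peak on chromosomes 1 to 22 or X was taken when it overlapped a replicate 2 peak by at least 1 bp and when its summit lay outside every annotated gene, more than 3000 bp from any protein-coding gene, more than 50 kb from the nearest protein-coding transcription start site (TSS), and not between 1500 bp before and 500 bp after the start of any transcript. Of 17054 replicate 3 peaks on these chromosomes, 8133 overlapped replicate 2, and the 1434 far intergenic peaks made up 17.6% of those shared peaks (exact Clopper-Pearson 95% interval 16.8 to 18.5). The other shared peaks lay in protein-coding genes (3647), in intergenic sequence near coding genes (1255), in noncoding genes (1018) or in TSS windows (779).

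ChIRP (chromatin isolation by RNA purification) fishes a cross-linked RNA out of sonicated chromatin with biotinylated antisense DNA probes, and the DNA that comes with it is sequenced. The study used RWPE-1, an immortalized line of normal prostate epithelial cells with basal features, untreated, in 3 separate pull-downs with a pool of MIR205HG probes and 1 pull-down with a pool of lacZ probes, which have no target in human cells. Each MIR205HG experiment was compared with that same lacZ library, so a feature of the lacZ library touches all 3 peak lists. Replicates 1, 2 and 3 held 723, 10765 and 17054 peaks on these chromosomes, all from a single cell line, and a site without a replicate 1 peak is a site that did not pass the peak threshold there. The depth relative to lacZ, worked back from the peak values, was 1.83, 1.39 and 1.00, so the replicate with the fewest peaks was the deepest.

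MIR205HG is the host gene of the microRNA miR-205, and its spliced transcript acts in the nucleus as a lncRNA that restrains the luminal differentiation of prostate basal cells. The transcript carries a stretch of Alu sequence, a primate short interspersed repeat that is the most numerous repeat of the human genome and is densest near genes. Sequence far from coding genes, in contrast, is poor in genes, in Alu elements and in G and C bases. It includes gene deserts, which often flank genes of developmental regulators, and the repeat-rich sequence next to centromeres.

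The sequences below carry the patterns described further on. Coordinates are on GRCh37 (hg19), bases are given on the plus strand of the genome unless stated, and the transcript is the annotated MIR205HG transcript of 1007 bases. Its Alu part is the 212 bases from base 180 on. The first 3 sequences are the summits of the strongest members without an Alu alignment of 100 bp, by the geometric mean of the fold enrichments of replicates 2 and 3. Capitals mark the longest exact match, on either strand, to a part of the MIR205HG transcript outside its Alu part, where that match reached 12 bases.
chr2:189772722-189772921: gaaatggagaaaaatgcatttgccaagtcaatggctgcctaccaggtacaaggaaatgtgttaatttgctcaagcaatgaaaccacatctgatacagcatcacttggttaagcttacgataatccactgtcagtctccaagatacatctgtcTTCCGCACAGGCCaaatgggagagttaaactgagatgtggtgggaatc
chr5:26106123-26106322: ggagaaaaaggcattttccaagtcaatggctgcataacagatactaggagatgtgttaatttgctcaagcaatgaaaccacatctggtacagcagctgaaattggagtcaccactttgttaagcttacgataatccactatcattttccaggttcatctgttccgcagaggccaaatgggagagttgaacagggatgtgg
chr9:102098639-102098838: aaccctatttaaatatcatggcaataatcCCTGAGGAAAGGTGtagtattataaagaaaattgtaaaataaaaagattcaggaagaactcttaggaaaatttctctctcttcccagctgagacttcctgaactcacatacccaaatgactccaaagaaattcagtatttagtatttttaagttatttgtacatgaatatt
The match in the chromosome 2 sequence was to transcript bases 463 to 475, and that in the chromosome 9 sequence was to bases 438 to 451 on the opposite strand. The chromosome 5 sequence, whose longest match had 11 bases and is not capitalised, resembled the chromosome 2 sequence along its length. Both belong to the sequence family described at the end.

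The first 60 bases of the transcript are shown with bases 15 to 36 in capitals, the stretch outside the Alu part that the members' summits matched most often. Below it stand 6 members with exact matches of at least 16 bases outside the Alu part. They are written in the direction of the transcript with 15 bases on each side and the match in capitals.
MIR205HG bases 1 to 60: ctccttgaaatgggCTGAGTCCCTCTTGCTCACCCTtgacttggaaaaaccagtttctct
chr9:83868769-83868816, transcript bases 22 to 39: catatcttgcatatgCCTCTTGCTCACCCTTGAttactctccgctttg
chr1:14156916-14156962, transcript bases 98 to 114: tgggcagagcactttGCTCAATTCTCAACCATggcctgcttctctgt
chrX:39840275-39840321, transcript bases 960 to 976: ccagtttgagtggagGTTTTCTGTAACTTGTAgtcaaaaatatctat
chr4:20197195-20197241, transcript bases 20 to 36: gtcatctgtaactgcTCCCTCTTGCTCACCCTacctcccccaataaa
chr13:23529672-23529717, transcript bases 944 to 959: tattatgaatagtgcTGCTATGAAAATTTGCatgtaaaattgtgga
chr9:66336076-66336121, transcript bases 99 to 114: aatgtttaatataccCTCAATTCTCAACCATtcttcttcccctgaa
These 6 matches had 16 to 18 bases. The 2 with 16 bases are from 9 members with a longest match of that length, and the rest of those 9 are not printed. Of the 6 places printed, 2 fell on transcript bases 20 to 39, another 2 on bases 98 to 114, and the last 2 on bases 944 to 976. This is no count over all matches of 16 bases or more.

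In replicate 3 the fold enrichment of the members over lacZ at the summit, as MACS2 reported it, ranged from 1.60 to 40.4 with a median of 7.97 and quartiles of 5.76 and 11.5. In replicate 2 it ranged from 1.44 to 34.1 with a median of 6.60 and quartiles of 5.12 and 8.39. The other shared peaks, in and near genes, had medians of 7.97 and 6.38. These values chose the members and are a description. The members had a median of 21 reads piled up at the summit in replicate 3 and 23 in replicate 2, against a scaled lacZ level that had a median of 1.30 in both comparisons. A total of 276 members (19.2%) stood at the lowest lacZ level that the caller used in replicate 3, 0.846, so their fold enrichment was set by the reads of the MIR205HG library.

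Replicates 2 and 3 were called against the same lacZ library, and their values at the members are given side by side. Their summits lay a median of 42 bp apart, and 1263 members (88.1%) had them within 200 bp. Replicate 3 had the higher fold enrichment at 1086 members (75.7%). Both replicates reached 10-fold at 197 members and 20-fold at 13.

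**Figure D1:**
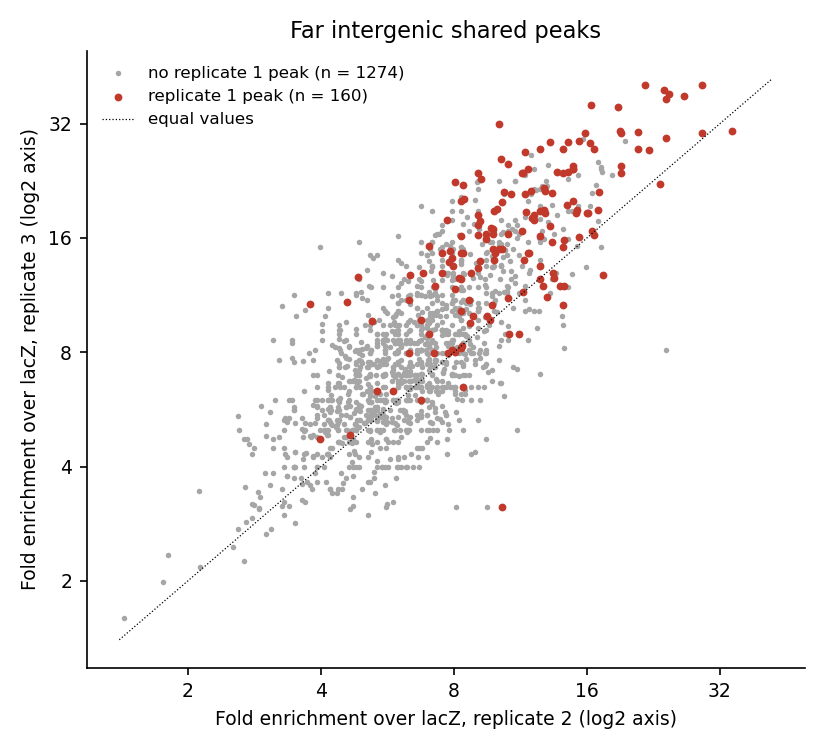
Fold enrichment over lacZ at the summit of each of the 1434 far intergenic shared peaks, replicate 2 against replicate 3, on log2 axes. Each point is 1 peak, red where replicate 1 also had a peak (n = 160) and grey where it did not (n = 1274). The red points gather at the upper right, and the dotted line marks equal values.

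Replicate 1, which the rule did not use, had a peak at 160 of the 1434 members (11.2%, exact interval 9.57 to 12.9). Over all 8133 shared peaks the share was 7.99%, and at the 6699 other shared peaks it was 7.31%. The far intergenic peaks thus had a replicate 1 peak more often, by 3.84 percentage points (Newcombe 95% interval 2.18 to 5.68). The difference was 5.66 points (3.59 to 7.73) against near intergenic peaks, 3.75 points (1.98 to 5.67) against peaks in coding genes and 5.25 points (2.83 to 7.51) against peaks in TSS windows. Against peaks in noncoding genes it was 0.843 points (-1.69 to 3.29), an interval that holds 0. These intervals cover counting error over regions only, since all regions come from the same libraries. All 13 members that reached 20-fold in both replicates had a replicate 1 peak, as did 91 of the 197 that reached 10-fold.

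The strongest member over the 3 replicates was chr2:189771894-189773525, 66.3 kb upstream of a TSS of COL3A1, which encodes a fibrillar collagen. Its fold enrichment was 20.6 in replicate 1, 26.5 in replicate 2 and 37.8 in replicate 3, from 52, 67 and 69 reads at the summit. The next was chr14:49185614-49187661, where the values of replicates 1, 2 and 3 were 21.96, 21.7 and 40.3. Its nearest coding TSS was that of the ribosomal protein gene RPS29, 867 kb away. Both regions were wider than 1 kb, held no Alu alignment, and consisted only of 100-base stretches that occur once in the genome.

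At chr5:26105705-26107109, 785 kb from the cadherin gene CDH9, the fold enrichment was 19.0, 24.6 and 38.3. At chr2:139397044-139397537, 75.4 kb from SPOPL, it was 19.8, 24.2 and 37.2. At chr9:102098384-102098989, 114 kb from SEC61B, which encodes a subunit of the protein channel of the endoplasmic reticulum, it was 15.2, 23.9 and 39.3. In these 3 regions replicate 1 was the lowest and replicate 3 the highest. The last of the 6 was chr9:98915170-98916641, 90.9 kb from HSD17B3, a gene of testosterone synthesis. There replicate 2 was the highest, with values of 10.6, 34.1 and 30.5, and the peak held an Alu alignment of 119 bp.

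Of the members without a replicate 1 peak, the strongest was chr14:97152397-97153910, 110 kb upstream of the kinase gene VRK1, with 19.5-fold in replicate 2 and 28.9-fold in replicate 3 from 53 and 57 reads. It was followed by chr5:36380238-36381507 near RANBP3L (15.7 and 29.1), chr8:131598449-131599018 near ASAP1 (17.0 and 25.4), chr10:36061680-36062151 near FZD8, a Wnt receptor (18.2 and 23.5), and chr8:131761779-131764550 near the adenylate cyclase gene ADCY8 (17.2 and 24.6). The reads at these summits, 39 to 59 in replicate 2, were in the range of those at members with a replicate 1 peak, whose quartiles were 28 and 53.

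The 4 members farthest from a coding TSS were weaker than the strongest members named above. As a class, members beyond 1000 kb had median fold enrichments of 6.84 in replicate 2 and 8.05 in replicate 3. Over all members these were 6.60 and 7.97. At chr21:24880924-24881209, 2045 kb from NCAM2, a neural adhesion molecule, the fold enrichment was 10.6 in replicate 2 and 8.63 in replicate 3. At chr13:55629217-55629513, 2026 kb from OLFM4, it was 7.27 and 11.5. A pair of peaks 1974 kb from FLRT2 had 7.52 and 12.9 at chr14:84022043-84022345 and 5.58 and 3.98 at chr14:84022751-84023404. None of these 4 had a replicate 1 peak. At the other end of the rule, the members just inside the limit lay 50013, 50034 and 50062 bp from a TSS, of UNC93A, IPO5 and LUZP4, with replicate 3 fold enrichments of 12.5, 5.78 and 11.95. The shared intergenic peaks just outside it lay 49878, 49836 and 49830 bp from a TSS, of YWHAZ, IYD and UBE2F, with 21.4, 10.96 and 8.55.

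Sequence that met the location rule covered 678 Mb of the 2836 Mb of sequenced bases (23.9%), a larger share than that of the members among shared peaks (17.6%). The members therefore had a density of 2.12 per Mb, against 3.10 per Mb for the other shared peaks in the rest of the genome. Within the far intergenic sequence the density fell with distance from the nearest coding TSS. It was 2.66 per Mb between 50 and 100 kb (379 members, exact Poisson interval 2.40 to 2.94), 2.38 between 100 and 250 kb (2.17 to 2.60), 1.78 between 250 and 500 kb (1.57 to 2.01) and 1.59 between 500 and 1000 kb (1.38 to 1.82). Beyond 1000 kb it was 1.89 (104 members, 1.54 to 2.28), an interval that overlaps those of the 3 classes before it. Of these 104 members, 24 lay in a single run on chromosome 8, described below. The intervals of neighbouring classes overlap except between the classes that meet at 250 kb.

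The share of members with a replicate 1 peak ran the other way. It was 6.33% (exact interval 4.10 to 9.28) between 50 and 100 kb, 10.4% (7.81 to 13.5) between 100 and 250 kb, 14.2% (10.2 to 18.9) between 250 and 500 kb and 17.3% (12.4 to 23.3) between 500 and 1000 kb. Beyond 1000 kb it was 12.5% (6.83 to 20.4), an interval that overlaps all the others. The interval of the first class lies below those from 250 to 1000 kb. The median fold enrichment moved little over the 5 classes, from 7.47 to 8.09 in replicate 3 and from 6.35 to 6.84 in replicate 2. The share with an Alu alignment fell from 37.5% in the first class to 20.2% in the last. The 24 members of the chromosome 8 run, all in the last class, had no replicate 1 peak and no Alu alignment. That single place thus lowers both shares of the last class and raises its density.

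**Figure D2:**
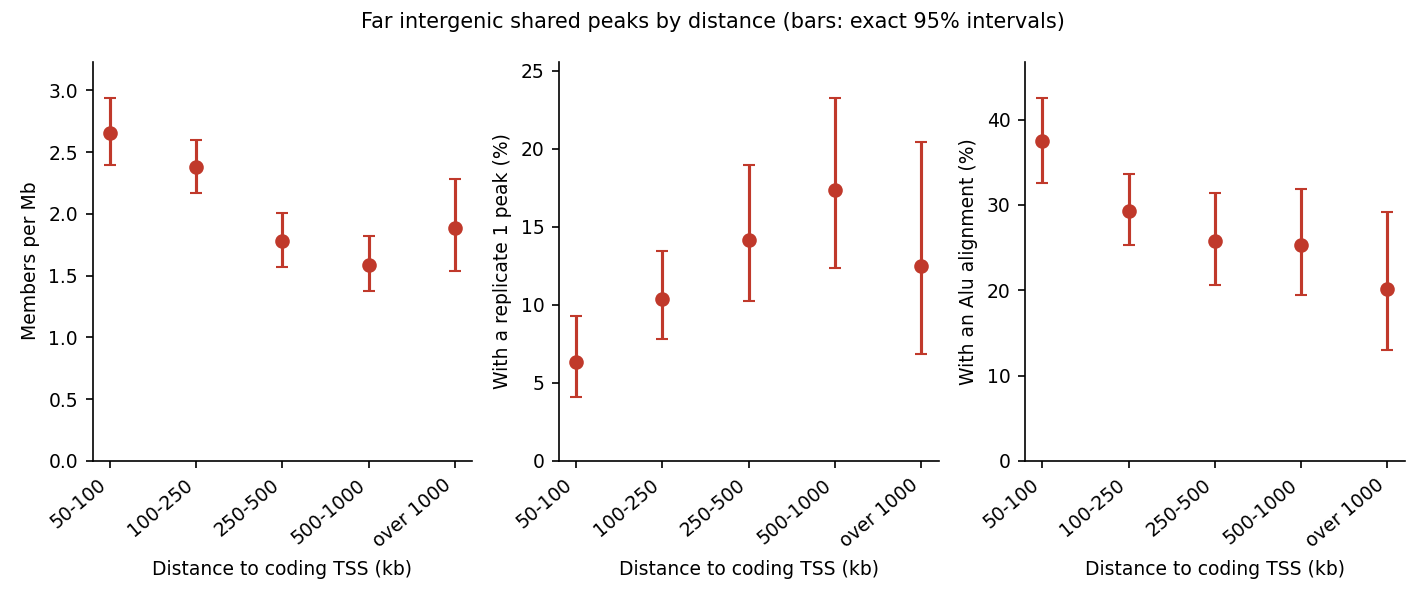
Far intergenic shared peaks in 5 classes of distance to the nearest protein-coding TSS: members per Mb of sequence that met the rule, percent of members with a replicate 1 peak, and percent with an Alu alignment of at least 100 bp. Points are the values and bars the exact 95% intervals. Density and Alu share were highest below 100 kb (2.66 per Mb and 37.5%), and the replicate 1 share was lowest there (6.33%).

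The members lay on all 23 chromosomes, at densities that followed those of the other shared peaks. Over the 23 chromosomes Spearman's rho between the 2 densities was 0.851 and Pearson's r was 0.869, both from the same libraries. Chromosome 20 had the highest density, 4.47 members per Mb (59 members, exact Poisson interval 3.40 to 5.76), against a median of 2.19 over chromosomes, and its other shared peaks were also the densest, at 7.49 per Mb. Chromosome X had the lowest density, 0.357 per Mb (19 members, 0.215 to 0.558), and chromosome 3 the next, 0.961 (42 members, 0.692 to 1.30). Chromosome 8 was the only one on which the members were denser than the other shared peaks (2.87 and 2.20 per Mb).

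**Figure D3:**
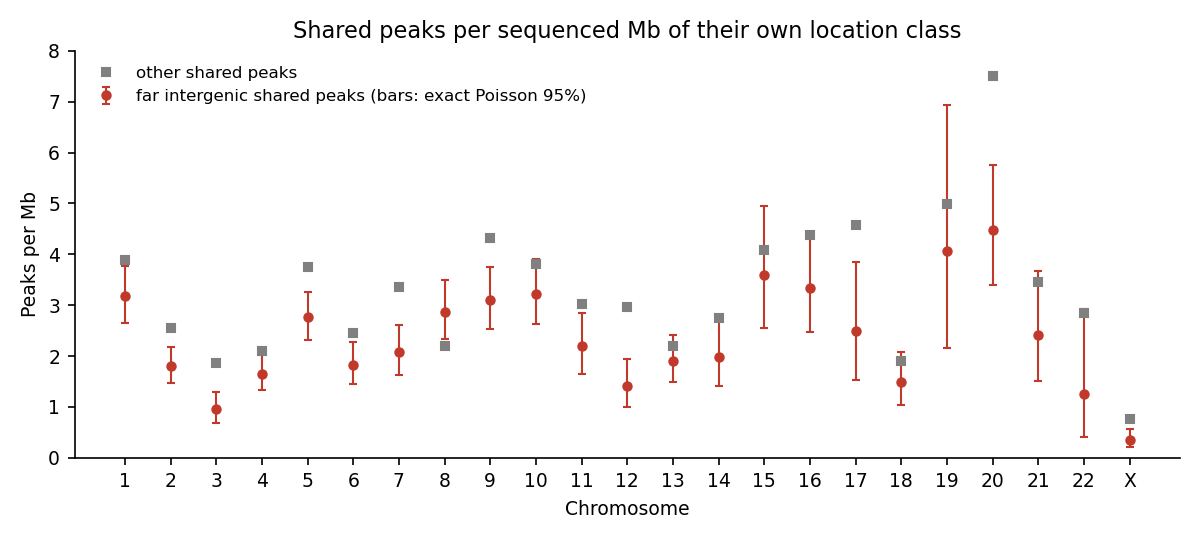
Shared peaks per sequenced Mb on each chromosome, far intergenic peaks in red with exact Poisson 95% intervals and the other shared peaks as grey squares, each over the sequence of its own location class. Chromosome 20 was highest in both (4.47 and 7.49 per Mb), chromosome X lowest in both (0.357 and 0.766 per Mb), and on chromosome 8 the order was turned.

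On chromosome 8 many members lay in a single place. A run of 24 members with gaps of at most 50 kb lay at chr8:47004756-47170541, 1004751 to 1168337 bp from the nearest coding TSS. Runs of 9 and 7 followed at chr8:47312813-47350309 and chr8:47239511-47251206. Together 40 of the 100 members of chromosome 8 lay between 47004756 and 47350309, 166 to 509 kb from the assembly gap of the centromere, with SPIDR, a gene of homologous recombination, as the nearest coding gene. Their fold enrichment was 2.45 to 17.8 in replicate 3 (median 7.28) and 2.53 to 11.9 in replicate 2 (median 5.70), none had a replicate 1 peak, and none held an Alu alignment. Without these 40 the density of chromosome 8 was 1.72 per Mb. The other run of 9 members lay at chr21:10777438-10840054, also beside a centromere gap and near TPTE, with 3.98-fold to 8.33-fold in replicate 3 and no replicate 1 peak. Per kb, 7 members at chr10:79901625-79907736, near the ribosomal protein gene RPS24, stood closer together than those of any of these 4 runs. They lay within 6.11 kb, with 5.62-fold to 12.5-fold in replicate 3 and no replicate 1 peak, and were singled out after their values were seen. With gaps of up to 50 kb joined, all members formed 905 loci, of which 570 held 1 member and 13 held at least 5, so most members lay within 50 kb of another.

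In all, 145 members (10.1%) lay within 1 Mb of an assembly gap of at least 100 kb, against 3.91% of the other shared peaks, a difference of 6.20 points (Newcombe interval 4.66 to 7.93). Of the far intergenic bases themselves, 5.82% lay that close to a gap, and without the 40 members on chromosome 8 the share was 7.53%. A replicate 1 peak was present at 8 of the 145. The highest lacZ levels of all members were next to the centromere of chromosome 16. At chr16:46386033-46386840 the 171 reads of replicate 3 stood against a lacZ level of 106, and the 189 reads of replicate 2 against 94.0, which gave fold enrichments of 1.60 and 1.44, the lowest of all members.

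An alignment of at least 100 bp to the Alu part of the transcript was present in 424 members (29.6%, exact interval 27.2 to 32.005), against 37.3% of all shared peaks. The far intergenic peaks had one less often than the other shared peaks, with a difference of -9.35 points (Newcombe interval -11.9 to -6.67). The difference was -12.7 points (-16.3 to -9.04) against near intergenic peaks, -11.01 (-13.8 to -8.13) against coding genes and -6.89 (-11.03 to -2.80) against TSS windows. Against noncoding genes it was -1.18 (-4.89 to 2.49), an interval that holds 0. Of the 1667686 windows of 404 bp, the members' median width, that met the location rule along their whole length, 4.65% held such an alignment. In the 200 bp around the summit, 14.1% of members held an alignment of at least 100 bp, against 1.66% of the 200-bp windows of far intergenic sequence and 18.3% of the other shared peaks. There the difference from the other shared peaks was smaller, -4.18 points (-6.13 to -2.08), and the intervals against noncoding genes and TSS windows held 0. With alignments of at least 50 bp in the whole peak it was -14.1 points, and with at least 150 bp -0.134 points with an interval that holds 0. Alignments of 100 bp to the transcript's Alu part were thus less frequent in the members than in the other shared peaks together and more frequent than in windows of the sequence they lay in.

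Along the chromosome the Alu share of the members rose at the summit only. It was 21.4% and 21.1% in the 100-bp bins on either side of the summit, 6.49% and 5.93% in the bins from 200 to 300 bp, and 1.88% and 2.65% in the bins from 400 to 500 bp. The members with an Alu alignment had a lower fold enrichment than the rest in replicate 3 and nearly the same in replicate 2. Their median fold enrichment was 7.47 in replicate 3 and 6.63 in replicate 2, against 8.09 and 6.60 for the other 1010 members. A replicate 1 peak was present at 9.67% of those with an alignment and 11.8% of those without, a difference of -2.11 points (-5.37 to 1.57). Their scaled lacZ level in replicate 3 had a median of 2, against 1.08 for members without an alignment. Reads and q-values went the other way from the replicate 3 fold enrichment. Members with an alignment had medians of 22 summit reads in replicate 3 and 26 in replicate 2, against 20 and 22. Their median -log10 q-values were 11.2 and 8.88, against 10.9 and 7.51.

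**Figure D4:**
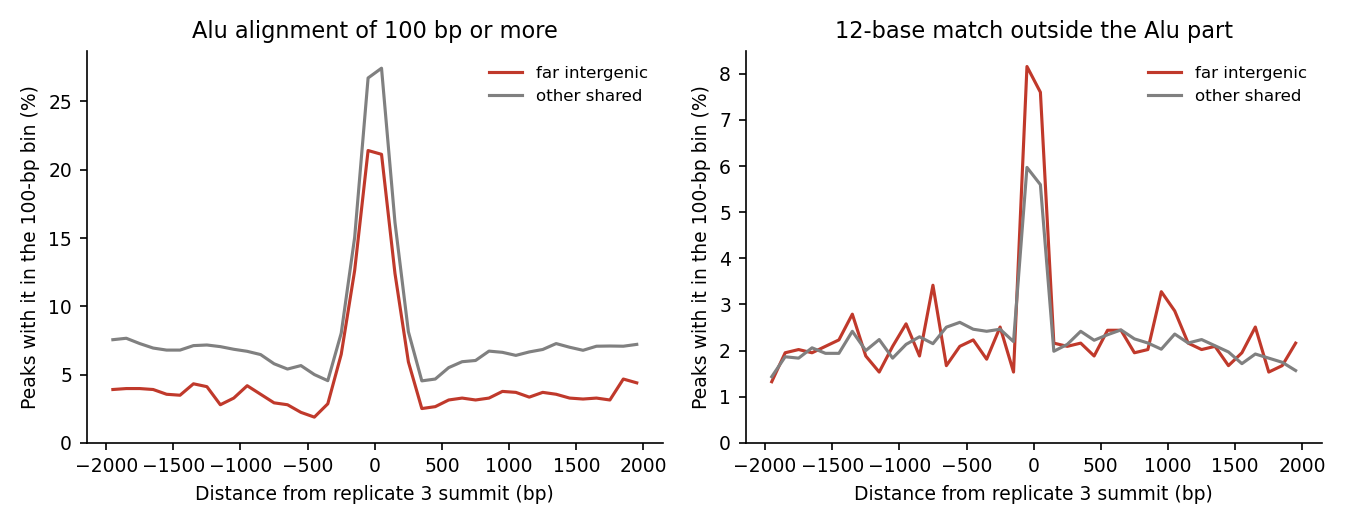
Percent of peaks with an Alu alignment of at least 100 bp (left) and with an exact 12-base match to the MIR205HG transcript outside its Alu part (right), in bins of 100 bp by distance from the replicate 3 summit, for far intergenic (red) and other shared peaks (grey). Both features peaked at the summit. The far intergenic peaks were below the others for Alu (21.4% and 26.7% in the bin just left of the summit) and above them for the match outside the Alu part (8.16% and 5.97%).

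The transcript was also searched for at the summits outside its Alu part. Within 75 bp of the summit, 141 members (9.83%, exact interval 8.34 to 11.5) held an exact match of at least 12 bases, on either strand, to transcript sequence outside the Alu part, against 7.72% of all shared peaks. In windows of the same size more than 1 kb to the left and to the right of the same summits the shares were 2.51% and 3.00%. Summits exceeded the mean of their flanks by 7.08 points (Newcombe interval 5.496 to 8.81). This interval takes summit and flank windows as independent, although each summit was set against flanks of the same member. The members exceeded the other shared peaks by 2.56 points (0.989 to 4.32), near intergenic peaks by 3.54 points (1.47 to 5.59) and peaks in coding genes by 2.68 points (0.991 to 4.51). Against noncoding genes the difference was 1.68 points (-0.656 to 3.93) and against TSS windows 1.62 points (-0.96 to 4.01), intervals that both hold 0. Among the 750 members without any Alu alignment, 117 (15.6%) held a match at the summit, and 2.40% and 2.53% in the flanks.

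The members with such a match were stronger. Their median fold enrichment was 12.5 in replicate 3 and 8.22 in replicate 2, against 7.64 and 6.42 for members without one. They had medians of 29 summit reads in replicate 3 and 25 in replicate 2, against 20 and 23. Their lacZ level was also lower: 31.9% stood at the lowest level in replicate 3, against 17.9% of members without a match. A replicate 1 peak was present at 37 of the 141 (26.2%) and at 123 of the 1293 others (9.51%), a difference of 16.7 points (9.94 to 24.7). Among members below 10-fold in 1 or both replicates the shares were 16% with and 4.66% without a match, a difference of 11.3 points (5.27 to 19.8). Among the 197 members at 10-fold or more in both they were 51.2% and 44.9%, a difference of 6.35 points whose interval (-10.3 to 22.7) holds 0. With the length of the longest match the median replicate 3 fold enrichment went from 7.01 at 8 bases (411 members) through 7.97 at 10 bases (233) and 12.6 at 13 bases (39) to 16.7 at 15 bases (16). It was lower at 16 bases, 10.96 (9 members), and at 17 bases, 13.4 (3 members), and the 1 member with a match of 18 bases had 16.7.

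The matches were not spread over the transcript. Outside the Alu part, bases 15 to 36 (CTGAGTCCCTCTTGCTCACCCT) accounted for 66 members (4.60%, exact interval 3.58 to 5.82), while no 12-base match starting in this stretch was found in more than 2 windows of either flank. Of these 66 members, 19 had a replicate 1 peak (28.8%, 18.3 to 41.3), 6 held an Alu alignment, and the median fold enrichment was 14.2 in replicate 3 and 8.34 in replicate 2. Smaller groups matched bases 100 to 114 (TCAATTCTCAACCAT, 8 members), 439 to 452 (ACCTTTCCTCAGGA, 12 members), 944 to 959 (TGCTATGAAAATTTGC, 9 members) and 960 to 972 (GTTTTCTGTAACT, 5 members). The ChIRP probes were antisense to the transcript and spaced along it, and a probe sequence can pair with chromosomal DNA without the RNA. The probe sequences are not in the sources used here, so whether these stretches coincide with probes was not tested.

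**Figure D5:**
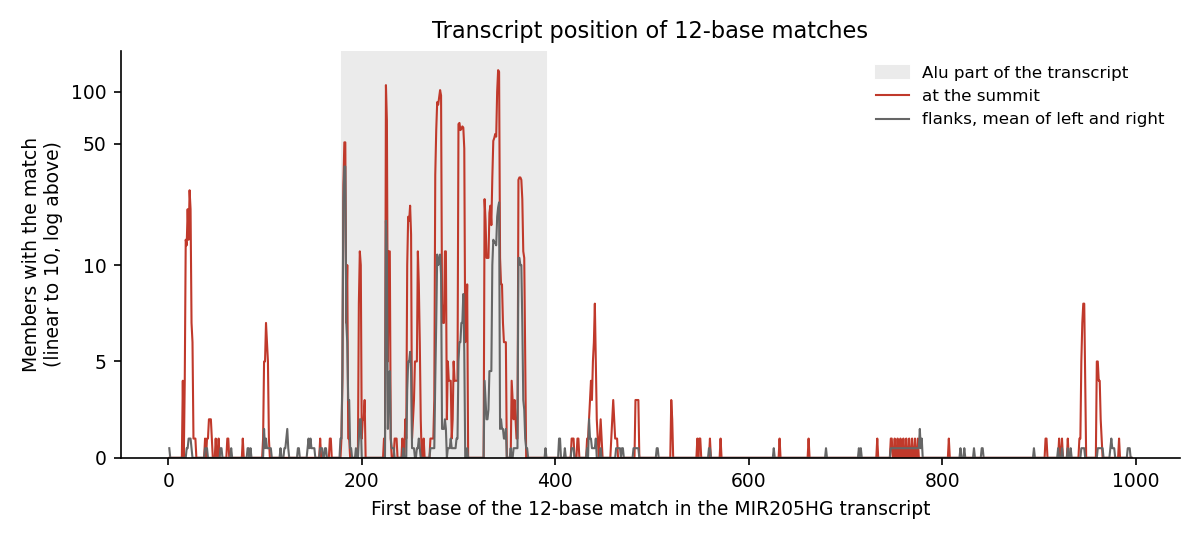
Number of far intergenic shared peaks with an exact 12-base match to the MIR205HG transcript, by the first base of the match, within 75 bp of the replicate 3 summit (red) and in the flanks (grey, mean of the left and right window). The vertical axis is linear up to 10 and logarithmic above, and the shaded part is the Alu part, 212 bases from base 180 on. Outside it the summit matches stood in a few narrow places, the highest at bases 15 to 36 with up to 27 members for a single 12-base match.

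In base composition the members lay between their surroundings and peaks near genes. Their median GC content was 46.5% with quartiles of 42.6% and 50%, against 48.2% for the other shared peaks and 37.9% for all far intergenic windows of 404 bp. The 160 members with a replicate 1 peak had a median of 41.2%, and the 1274 without one had 47.0%. Few members held sequence that was repeated exactly at read length. Only called peaks were examined, so sequence in which reads could not be placed is not covered. In 1331 members (92.8%) every stretch of 100 bases, the read length, occurred once in the genome, and in 22 members (1.53%) under 50% of the stretches did, against 1.18% of the other shared peaks. That difference of 0.355 points had an interval (-0.239 to 1.17) that holds 0. Of the 22 members, 14 lay within 1 Mb of an assembly gap.

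Although nearly all members could be told apart by single reads, many resembled one another. Among the 750 members without any Alu alignment, the 300 bases around the summit aligned to those of another such member in 326 (43.5%), and 6 families had at least 10 members, 231 in all. The family with the highest fold enrichment had 12 members on 7 chromosomes, with a median identity of 82.0% over 265 bp. It included the chromosome 2 and chromosome 5 sequences printed above. Its median fold enrichment was 15.6 in replicate 3 (7.55 to 38.3) and 10.5 in replicate 2 (6.74 to 26.5), and 4 of the 12 had a replicate 1 peak. Besides the 2 already named, those were chr18:64119640-64120011, 120 kb from the cadherin gene CDH19, with 16.4, 20.9 and 30.4-fold in replicates 1, 2 and 3, and chr4:142346092-142346381, 204 kb from ZNF330, with 8.34, 13.3 and 15.6-fold. One of the 12 held a 12-base match outside the Alu part. The sequence of a central member aligned over at least 100 bp to 1118 places in the genome, of which 49 (4.38%) lay in a shared peak of any class.

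Of the other families, that of 36 members lay wholly on chromosome 8, with members in each of the 3 runs there, and had a median GC content of 58.2% and 74.5% identity. It had 977 copies, nearly all of them (973) in far intergenic sequence, and 268 (27.4%) in a shared peak. The family of 17 lay on chromosomes 4, 10, 16 and 21, had the lowest median fold enrichment (4.98 and 5.19) and no replicate 1 peak. The 3 largest families, with 61, 58 and 47 members on 18 or 19 chromosomes, were of interspersed repeats with 1038144, 51579 and 86105 copies, of which 0.163% to 0.577% lay in a shared peak. The first had a copy number as high as that known for Alu, but which repeat it is was not tested. The count of 424 members with an Alu alignment is one of Alu sequence like that of the transcript. It may not cover all Alu sequence.

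The nearest coding genes of the members were 717 of 20090. SPIDR came first with its 40 members, followed by AUTS2, a gene of neural development that is flanked by a gene desert, with 15. Of 26 genes of basal prostate epithelium, 1 (3.85%) was the nearest coding gene of a member, near the 3.57% of all coding genes. It was TRIM29 (1 member, 167 kb away, 5.98-fold in replicate 3). The list was nearest to 0.306% of far intergenic bases and to 0.0697% of members, with an exact interval (0.00177 to 0.388) that holds the share of bases.

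Of 60 developmental transcription factors, 26 (43.3%) were the nearest coding gene of a member, against 3.57% of all coding genes. These genes have wide intergenic surroundings, so the bases are the fairer measure: the list was nearest to 2.66% of far intergenic bases and to 3.84% of members (55 members, exact interval 2.90 to 4.96). IRX1, a homeobox factor of organ patterning, and TFAP2C, a factor of epithelial and germ cell development, had 6 members each, and TSHZ3 had 5. Members with a replicate 1 peak included 1 near NR2F1 and 1 near TSHZ3. The strongest of those near NR2F1, a nuclear receptor of neural development, reached 19.1-fold in replicate 2 and 30.6-fold in replicate 3.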

How the data were processed

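ChIRP-seq peak lists of 3 MIR205HG pull-downs in RWPE-1 cells were used, and the lacZ library only as the authors' control within them (no list of its own was used here). The authors aligned single reads of 100 bases to hg19 with Bowtie (version 1.0.1 in the submitters' processing notes, Bowtie2 in the methods) and called peaks of each MIR205HG library against lacZ with MACS2 2.1.0. The deposited lists give per peak the fold enrichment at the summit, a ratio over lacZ, the -log10 p-value and q-value, an integer score and the summit offset. Total reads were not given in the sources used here, so the depth of each library is known only relative to lacZ. The number of reads under each summit, and the lacZ level it was set against, were worked back from fold enrichment and p-value (solved for 100% of shared peaks in all 3 lists), with depth ratios to lacZ of 1.83, 1.39 and 1.00 for replicates 1, 2 and 3. Replicate numbers follow the sample labels. Peak names inside the lists carry other numbers.

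Location used GENCODE 44 on GRCh37. The Alu part of the transcript was aligned with blastn 2.17.0 (word size 11, E-value up to 1e-05), and stretches of 100 bases were counted exactly in the genome. Families were alignments between members at an E-value of up to 1e-10. Shares have exact Clopper-Pearson intervals and differences Newcombe 95% intervals (statsmodels 0.14.6, scipy 1.17.1), which cover counting error over regions only. The Newcombe intervals ignore pairing, also where summits were compared with their own flanks. Scripts were tested on simulated data. The members, the gene lists and the tests were chosen with earlier results of these data known, and the transcript matches outside the Alu part and the families were looked for after seeing the data. Named members were, by a fixed rule, the 6 strongest with and the 5 strongest without a replicate 1 peak, the 4 farthest from a coding TSS, the 3 runs with the most members (the run on chromosome 21 tied with the second on chromosome 8), and those beside the 50 kb limit. Some items named by these rules are not reported here. Alternatives covered overlap, thresholds, location, gaps, chromosomes 8 and 20, replicates, Alu length and stretch length.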

Additional observations from a re-analysis of the deposited data

How the results depend on the processing

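The excess of replicate 1 peaks at far intergenic peaks kept its direction and its interval above 0 under all 12 alternatives, between 3.81 and 5.63 points, and the excess of 12-base matches at summits over flanks did so under the 5 alternatives, chosen after seeing the data (2.96 to 13.1 points). The lower Alu share kept its call under 15 of 16 alternatives. One of the 15, leaving out replicate 1, was the main setting unchanged and could not differ, here and in the results below. The difference of -9.35 points moved to -14.1 with alignments of at least 50 bp and to -4.18 in the 200 bp around the summit. With alignments of at least 150 bp, which 0 members and 9 other shared peaks held, the difference was -0.134 points, and its interval held 0. The Alu difference was -9.59 points without replicate 2 and -9.55 points without replicate 3. The number of members was 2236 with noncoding genes ignored, and 161 to 1434 when 1 replicate was left out (168 without replicate 2, 161 without replicate 3, and 1434 without replicate 1, which the rule did not use). The difference in peaks of repeated sequence, not called, was 0.816 points and called with noncoding genes ignored, and turned to -0.169 at a q-value of at most 1e-05, -0.142 at a fold enrichment of at least 5 in both, and -0.374 without peaks near assembly gaps. It ranged from -0.0012 (without replicate 2) to 0.643 points when 1 replicate was left out. The median over members of the geometric mean fold enrichment of both lists was 7.13. It was 8.31 at the q-value limit and 8.30 at the fold limit, and 7.13 to 12.1 when 1 replicate was left out (12.1 without replicate 2, 10.05 without replicate 3), where fewer and stronger peaks remained. The median GC content was 46.3% with 50% coverage by replicate 2, 45.9% at the q-value limit, 45.99% at the fold limit, 46.1% beyond 100 kb, 46.2% without peaks near gaps, 46.4% without chromosome 20 and 48.0% in the 200 bp around the summit. When 1 replicate was left out it was 40.9% to 46.5%. The cause of these shifts was not tested.

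No paired analysis of MIR205HG and lacZ libraries was possible because the lacZ group has 1 library and no list of its own was used here. Everything rests on 3 peak lists of 1 cell line against 1 lacZ library, so a site's reads in lacZ, often at the caller's floor, limit each fold enrichment. Replicate 1 had 723 peaks, and a missing replicate 1 peak does not show that the site was not enriched there.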
